A study of Mus musculus with 15 samples.

Results

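The UCP1-positive adipocytes sorted from inguinal fat of all treated mice were set against the UCP1-positive adipocytes sorted from brown fat. The first set comprised 8 of the 15 arrays, and the second 3. The inguinal cells came from mice given 1 of 3 agents. They were CL316243 (CL, 3 arrays), a beta-3 adrenergic agonist, roscovitine (RS, 2 arrays), a cyclin-dependent kinase inhibitor, and rosiglitazone (RG, 3 arrays), an agonist of PPARG. The brown adipocytes (BAT) came from untreated mice, and so did the UCP1-negative white adipocytes from inguinal fat (WAT, 4 arrays), which are given beside the others for orientation. All mice are labelled UCP1/Tomato and were 8 to 10 weeks old. The gate is labelled UCP1(GFP), which leaves the reporter unsettled. The cell type label is beige for CL and RG and brite for RS, whose description also says beige, and beige is used here for all 8 arrays. Each treatment was weighted equally, so the beige value of a gene is the mean of the CL, RS and RG means. Every one of the 25206 probe sets was tested. No dose, treatment time, sex or array batch is given, and the labels do not say whether the arrays of a group came from separate animals, so the p-values measure only the spread between these samples. Untreated UCP1-positive inguinal cells were not among the groups. Depot and treatment therefore cannot be told apart in any difference below.

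Brown adipocytes sit in dedicated depots, while beige adipocytes appear within white depots after cold or drug treatment. Both use the mitochondrial carrier UCP1 to turn the proton gradient of the respiratory chain into heat. They arise from different precursors, and fat cells keep a positional record of their depot in Hox, Tbx and Zic transcription factors. The comparison asks how the mean of the 3 kinds of beige cells differs from brown adipocytes. It does not by itself show that each kind differs.

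Across all probe sets, 2176 (8.63%) passed an adjusted p of 0.05, and such probe sets are named called. Of these, 805 (3.19%) were higher and 1371 (5.44%) were lower in beige. The 8 beige arrays lay above all 3 BAT arrays for 689 probe sets (2.73%) and below them for 991 (3.93%). The split depended on signal. Among the 9690 probe sets with a mean over all arrays above 4, 657 were higher and 240 lower, whereas among the 15516 with a mean of 4 or less, 148 were higher and 1131 lower. The SD over probe sets was 1.69 to 1.85 in the beige arrays, against 1.65 to 1.72 in the BAT arrays. The 10th percentile lay at 1.81 to 2.03 in beige, against 2.11 to 2.15 in BAT. Odorant, vomeronasal and taste receptors, which adipocytes are not known to use, contributed 152 lower and 8 higher calls among 1391. The part of this difference in range in the low-signal calls was not tested. The share of calls that were higher was 37.0% in the deposited values, 43.4% after quantile normalization, 50.9% with each array centred on its median, and 72.6% when only probe sets with a mean above 4 were tested. Without BAT 1 the calls numbered 1117, and without BAT 4 they numbered 1209. With the replicate number in the titles fitted as a block, they numbered 317.

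**Figure D1:**
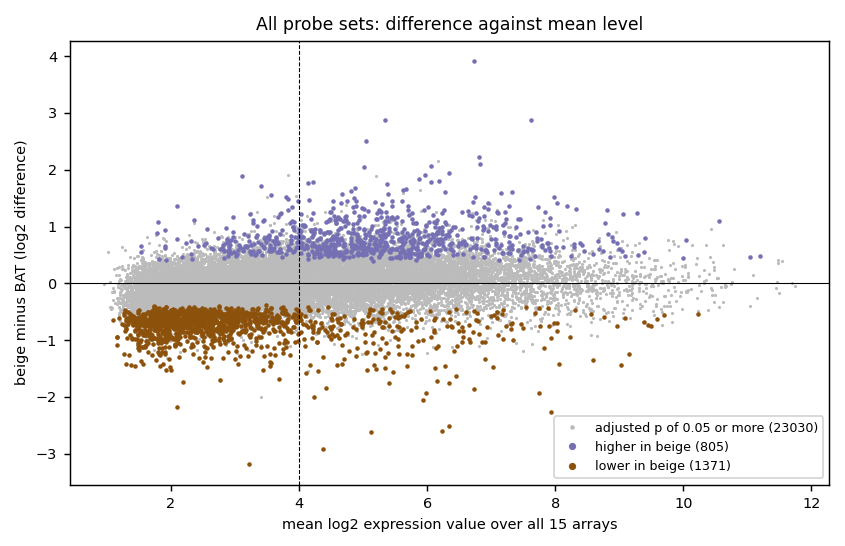
Difference between beige and BAT (log2, vertical axis) against mean log2 expression value over all 15 arrays (horizontal axis) for 25206 probe sets, with the dashed line at a mean of 4. Most of the 1371 probe sets called lower lie left of the line, and most of the 805 called higher lie right of it.

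The 4 largest decreases were those of Kng2, Slc27a2, Acot11 and Acsl5, and Pank1 and Coq8a were also among the 15 largest. Kng2, a kininogen from which kinins are cut, was at 2.00, 2.76 and 2.95 (lowest, median and highest of the 8 beige arrays), against 6.18, 5.93 and 5.54 in BAT. Every beige array lay far below every BAT array, near the 2.04 to 2.62 of the WAT arrays. The difference was -3.19 ± 0.19 (SE), or 9.13-fold lower, with an adjusted p of 4.71e-07. Slc27a2, an acyl-CoA synthetase for very long-chain fatty acids, was at 5.98, 6.21 and 4.97 in CL, 3.97 and 3.42 in RS, and 3.20, 2.96 and 4.43 in RG, against 7.35, 7.44 and 6.89 in BAT. No beige array reached BAT, and the CL arrays came nearest. Its difference was -2.91 ± 0.30, or 7.52-fold lower (adjusted p = 0.000181). Acot11, an acyl-CoA thioesterase induced in brown fat by cold, was at 5.72, 6.28 and 6.37 in CL, 4.52 and 4.29 in RS, and 3.93, 3.85 and 4.59 in RG, against 7.47, 7.85 and 7.21 in BAT. The groups did not overlap, and the difference was -2.63 ± 0.20 (adjusted p = 7.77e-06). Acsl5, a long-chain acyl-CoA synthetase, was at 7.06, 7.01 and 7.05 in CL, 5.84 and 5.25 in RS, and 5.01, 4.95 and 5.21 in RG, against 8.65, 8.48 and 8.07 in BAT. It was 5.73-fold lower in beige, with a difference of -2.52 ± 0.15 (adjusted p = 4.71e-07). Pank1, a pantothenate kinase at the first step of coenzyme A synthesis, differed by -1.93. Coq8a, which serves coenzyme Q synthesis, differed by -1.87, with 6.01, 6.92 and 8.05 (lowest, median and highest) in beige, against 8.63, 8.62 and 8.61 in BAT.

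The 15 largest decreases also included Phospho1 and Alpl, whose values are given with the creatine genes. Atp1b1, a beta subunit of the sodium pump, was at 2.97, 3.67 and 4.28 (lowest, median and highest) in beige, against 5.19, 5.63 and 6.08 in BAT, a difference of -2.01 ± 0.22 (adjusted p = 0.000248). Tuba8, an alpha tubulin, differed by -1.72. Clic5, an intracellular chloride channel protein, differed by -1.64, and Shtn1, which acts in axon growth in neurons, by -1.55. Magea1 (-2.18), Tdpoz2 (-1.74) and Krtap19-9b (-1.53) were also among the 15, but their means were under 4 in both beige and BAT. These 15 genes were 2.89-fold to 9.13-fold lower, and in fits that left out single arrays none of them lost its call. In each treatment's own limma comparison with BAT, 11 of them were called lower in CL, 15 in RS and 15 in RG. Clic5 was not called in CL, where it differed by -0.44 (adjusted p = 0.479).

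Promoters of genes among the largest decreases are shown for 3 of the 6 whose first listed promoter holds the nuclear receptor half-site AGGTCA, to show where it lies. PPAR, ERR and thyroid hormone receptors are known to read this half-site as part of their sites. RefSeq's promoter table (build GRCm38.p6, 250 bases before to 50 after a gene's start, printed 5′ to 3′ along the gene's strand) listed 23 of the 30 genes with the largest changes. Capitals mark AGGTCA or, on the other strand, TGACCT. The windows are chr16:23029052-23029351 on the minus strand for Kng2, chr2:126552774-126553073 on the plus strand for Slc27a2 and chr17:44188322-44188621 on the plus strand for Clic5.
Kng2: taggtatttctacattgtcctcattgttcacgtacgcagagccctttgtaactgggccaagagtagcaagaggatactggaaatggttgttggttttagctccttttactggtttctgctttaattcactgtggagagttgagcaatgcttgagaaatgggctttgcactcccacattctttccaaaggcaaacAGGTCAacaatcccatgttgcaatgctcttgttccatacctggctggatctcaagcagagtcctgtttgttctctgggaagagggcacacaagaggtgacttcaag
Slc27a2: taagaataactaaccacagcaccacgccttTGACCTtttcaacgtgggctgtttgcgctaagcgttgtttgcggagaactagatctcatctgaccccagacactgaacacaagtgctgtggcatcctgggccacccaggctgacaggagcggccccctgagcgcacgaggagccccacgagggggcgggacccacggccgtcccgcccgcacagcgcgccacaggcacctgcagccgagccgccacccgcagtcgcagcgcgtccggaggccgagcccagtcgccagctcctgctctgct
Clic5: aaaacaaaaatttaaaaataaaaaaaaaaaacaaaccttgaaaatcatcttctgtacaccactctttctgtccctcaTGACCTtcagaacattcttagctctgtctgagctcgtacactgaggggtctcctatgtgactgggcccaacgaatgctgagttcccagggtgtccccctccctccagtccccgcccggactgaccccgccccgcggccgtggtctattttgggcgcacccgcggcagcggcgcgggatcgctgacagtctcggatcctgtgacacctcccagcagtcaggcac
The half-site was in the first listed promoter of 6 of the 13 genes listed among the largest decreases. It was in 0 of the 10 listed among the largest increases, against 16.3% of all 32851 promoters of the same length in the table. The 6 were Kng2, Slc27a2, Tuba8, Clic5, Magea1 and Krtap19-9b, and the last 2 had means under 4 in both cell types. Coq8a and Alpl, also among the largest decreases, held it only in a later listed promoter. The longer form AAGGTCA, which contains the half-site, was in 2 of the 13, 0 of the 10 and 4.72% of all. The cAMP response element TGACGTCA was in 0 of the 13, 0 of the 10 and 1.79% of all. A match says only that these letters occur in the window.

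Genes of heat production were lower in beige as a group, with the RS and RG arrays farther from BAT than the CL arrays. Of 27 thermogenic genes measured, 15 were called lower and 0 higher, beside 5.44% and 3.19% of all probe sets. Their median difference was -0.96, against -0.04 over all probe sets, and all 27 differences were below 0, with Fgf21 turning to 0.007 after quantile normalization. The list includes Slc27a2, Acot11 and Pank1, already described among the largest decreases. Like the other lists it was chosen with earlier results of these data known, so its counts are a description. Ucp1, the uncoupling protein itself and the basis of the gate for both cell types, was at 10.53, 10.52 and 10.19 in CL, 6.05 and 8.43 in RS, and 7.69, 7.96 and 8.88 in RG, against 11.18, 11.22 and 10.22 in BAT. The CL arrays overlapped the BAT arrays, and the RS and RG arrays lay below both. The WAT arrays were lower still, at 3.20 to 4.47. The Ucp1 difference was -2.26 ± 0.41, or 4.80-fold lower in beige (adjusted p = 0.00515). In these bulk samples, fewer cells with a transcript and less of it per cell cannot be told apart. Elovl3, a fatty acid elongase induced in brown fat by cold, was at 9.05, 8.98 and 8.70 in CL, 4.67 and 5.71 in RS, and 5.06, 5.02 and 6.17 in RG, against 9.47, 9.42 and 8.43 in BAT. It was 6.07-fold lower in beige (difference -2.60 ± 0.32, adjusted p = 0.000427), with the CL arrays inside the BAT range. Cox7a1, the heart and brown fat form of a cytochrome c oxidase subunit, was at 9.20, 9.22 and 9.87 in CL, 6.71 and 7.59 in RS, and 7.53, 7.34 and 8.07 in RG, against 10.26, 10.48 and 9.31 in BAT. Its difference was -1.94 ± 0.27 (adjusted p = 0.00115). Cidea, a lipid droplet protein abundant in brown fat, differed by -1.35 (adjusted p = 0.0334). Its call was lost without any 1 of BAT 1, BAT 3, BAT 4, CL 1, CL 3, RS 4, RG 2 or RG 3, with an adjusted p of at most 0.0966. Letmd1, a mitochondrial protein needed for brown fat function, differed by -1.42, and Ppara, a nuclear receptor of fatty acid oxidation genes, by -1.44.

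**Figure D2:**
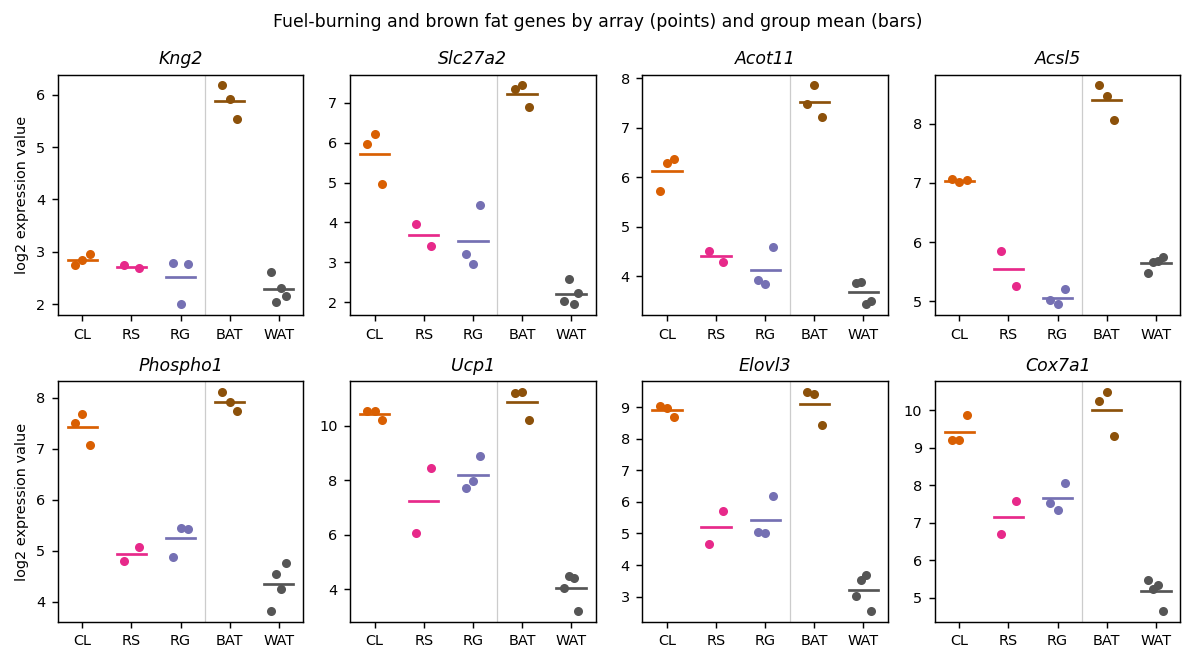
Log2 expression values of 8 genes lower in beige (vertical axes) in each array (points) and group mean (bars) for CL, RS, RG, BAT and WAT. The CL points of Ucp1 and Elovl3 overlap the BAT points, whereas no beige point of Kng2, Slc27a2, Acot11, Acsl5 or Phospho1 reaches BAT.

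Other thermogenic genes did not pass the test. Ppargc1a, the coactivator of mitochondrial biogenesis, was at 4.82, 5.50 and 6.33 (lowest, median and highest) in beige, against 6.62, 6.44 and 5.92 in BAT (difference -0.72, adjusted p = 0.111). Prdm16, a determinant of brown and beige fate, was at 4.94, 5.06 and 5.53, against 5.15, 5.33 and 5.62 in BAT (difference -0.21, adjusted p = 0.473). Dio2, which activates thyroid hormone, differed by -0.93 (adjusted p = 0.0687). Cox8b, another tissue-restricted cytochrome oxidase subunit, differed by -0.74 (adjusted p = 0.126). Fgf21, a secreted metabolic hormone, differed by -0.09 with means near 3 in both cell types. The thermogenic count lay between 11 (without BAT 1) and 18 (without WAT 4) when single arrays were left out.

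The mitochondrial machinery showed smaller and more diffuse differences. For comparison, 5.44% of all probe sets were called lower and 3.19% higher. The respiratory chain and ATP synthase together had 73 genes measured, of which 11 were called lower and 0 higher, with a median difference of -0.41 and 68 differences below 0. The 11 calls became 2 without BAT 1 or BAT 3, 6 without CL 1, 7 without CL 3, RG 2 or RG 3, and 20 without WAT 4. Ndufab1, an acyl carrier and complex I subunit, was at 6.62, 7.28 and 8.14 (lowest, median and highest) in beige, against 8.20, 8.36 and 8.09 in BAT (difference -0.98 ± 0.19, adjusted p = 0.00726). It was the only called complex I gene of 5 that kept its call when any single array was left out. Complex I had 1 call without BAT 1 or BAT 3, 3 calls without CL 3 or RG 2, and 10 without WAT 4. Among 22 genes of mitochondrial fatty acid oxidation, 6 were called lower and 0 higher, with 3 called when BAT 1, BAT 3 or BAT 4 was left out. Acaa2, the thiolase of its last step, differed by -1.24 ± 0.16 (adjusted p = 0.000644). It was at 8.62, 9.13 and 10.21 (lowest, median and highest) in beige, against 10.56, 10.63 and 10.22 in BAT, with no overlap. Slc25a20, the carnitine-acylcarnitine carrier, differed by -1.14 ± 0.18 (adjusted p = 0.00226). Peroxisomal oxidation had 5 lower and 1 higher of 21, with 2 lower without BAT 3 and 3 without BAT 1, CL 1, CL 3, RS 4 or RG 3. Decr2, a peroxisomal dienoyl-CoA reductase, differed by -0.84 (adjusted p = 0.00515), and Abcd2, a peroxisomal fatty acyl transporter, was higher by 1.21 (adjusted p = 0.0412, lost in 12 of the 15 fits that left out 1 array, all but those without WAT 1, WAT 3 or WAT 4). The tricarboxylic acid cycle had 2 lower of 23, a count of 0 without BAT 1 or BAT 3, of 9 without WAT 4, and of 1 without any other array except CL 4 and RS 4. Of 76 mitochondrial ribosomal protein genes, 4 were called lower, no larger a share than the 5.44% of all probe sets, with 1 without BAT 1 or BAT 3, 8 without BAT 4 and 12 after quantile normalization. Mrpl34 had a difference of -1.03 (adjusted p = 0.00443).

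Some genes of glucose and creatine handling were called lower, beside 5.44% of all probe sets. Of 22 genes of glycolysis and glucose uptake, 5 were called lower and 0 higher, but 1 without BAT 1 and 2 without BAT 4. Ldhb, a lactate dehydrogenase subunit, kept its call in all 15 such fits. It was at 6.72, 7.19 and 7.74 (lowest, median and highest) in beige, against 8.20, 8.15 and 7.95 in BAT (difference -0.91 ± 0.15, adjusted p = 0.00323). Of 15 glycogen genes 1 was called lower, a share near that of all probe sets. It was Ppp1r3b, which targets protein phosphatase to glycogen, with a difference of -1.49 ± 0.27 (adjusted p = 0.00499), and 2 were called without WAT 1, CL 1, RS 3 or RS 4. Of 9 creatine cycling genes 3 were called lower and 0 higher. Phospho1, a phosphatase of phosphocholine and phosphoethanolamine, was at 7.5, 7.69 and 7.07 in CL, 4.79 and 5.07 in RS, and 4.87, 5.45 and 5.43 in RG, against 8.11, 7.91 and 7.75 in BAT. All beige arrays were lower than BAT, with CL just below it, and the difference was -2.06 ± 0.20 (adjusted p = 0.00012). Alpl, a phosphatase that hydrolyses phosphocreatine in brown fat mitochondria, differed by -1.84 ± 0.16 (adjusted p = 3.55e-05). Among 31 genes of adrenergic and cAMP signalling 3 were lower and 1 higher, the latter near the 3.19% called higher among all probe sets. Adcy3, an adenylyl cyclase, was at 5.78, 7.23 and 7.85 in beige (lowest, median and highest), against 8.72, 8.64 and 7.96 in BAT, lower by 2.79-fold (adjusted p = 0.00573). Adcy5, another adenylyl cyclase, was 2.23-fold higher in beige (adjusted p = 0.0129, and 0.0519 without BAT 4). Among 21 calcium cycling genes 3 were lower (1 without BAT 1) and 1 higher (2 without BAT 3), beside 5.44% and 3.19% of all probe sets. Itpr2, a calcium release channel, differed by -1.10 (adjusted p = 0.000957) and Atp2b4, a plasma membrane calcium pump, by 1.14 (adjusted p = 0.00727).

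A few genes of the positional code differed between the cell types. Hoxc8, a posterior Hox gene, was at 5.96, 6.43 and 7.01 in CL, 5.88 and 6.69 in RS, and 7.03, 7.02 and 7.34 in RG, against 4.97, 4.93 and 3.79 in BAT. All 8 beige arrays were above all BAT arrays, and the difference was 2.06 ± 0.28, or 4.18-fold (adjusted p = 0.000942). Hoxc10 was at 4.80, 4.95 and 5.19 (lowest, median and highest) in beige, against 4.19, 3.81 and 3.85 in BAT, also without overlap (difference 1.01 ± 0.13, adjusted p = 0.000563). Hoxa5, an anterior gene, ran the other way. It was at 2.12, 2.76 and 3.48 in beige, against 3.98, 4.65 and 4.02 in BAT (difference -1.42 ± 0.22, adjusted p = 0.00166). Of the 38 Hox genes measured, 3 were called higher and 1 lower (2 lower without BAT 1, BAT 3, CL 1 or RS 4), beside 3.19% and 5.44% of all probe sets. The other 34 differed by -0.55 to 0.58. Hoxa10, the third higher gene, differed by 0.58 (adjusted p = 0.0218, and 0.0718 without BAT 1 or 0.0795 without BAT 3). Only 2 of the 38 had a mean over 5. Hoxc9, often used as a white fat marker, was at 3.01 to 3.30 in CL, 2.92 and 3.34 in RS, and 3.03 to 3.09 in RG, against 2.97 to 3.38 in BAT, and did not pass the test (difference -0.02, adjusted p = 0.95). Among 50 other patterning factors, 2 were called higher and 3 lower, shares near those of all probe sets. With single arrays left out, 1 to 3 were higher and 0 to 3 lower, with 0 lower without RS 4, RG 2 or RG 4. Tbx15, a factor of inguinal fat, was at 5.0, 5.29 and 5.95 in beige (lowest, median and highest), against 4.5, 4.53 and 3.18 in BAT (difference 1.28 ± 0.28, adjusted p = 0.0138, and 0.0739 without BAT 4). Zic1, a marker of classical brown fat, was at 2.38, 2.60 and 3.00 in beige, against 3.91, 3.12 and 2.82 in BAT, all under 4. Its difference of -0.64 (adjusted p = 0.0464) lost its call in 12 of the 15 fits that left out 1 array, all but those without WAT 4, BAT 4 or CL 4, and had an adjusted p of 0.246 without BAT 1.

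Known marker sets of fat cell types differed to unequal extents. Of 14 white-selective markers, 4 were called higher and 0 lower, beside 3.19% and 5.44% of all probe sets, with a median difference of 0.92. These 4 include Hoxc8, already described with the Hox genes. For 8 of the 14, all beige arrays lay above all BAT arrays, as they did for 2.73% of all probe sets. The called number was 10 without WAT 4. Lep, the hormone leptin, was at 7.34, 7.40 and 7.56 in CL, 7.95 and 7.72 in RS, and 8.05, 7.72 and 8.86 in RG, against 6.49, 6.54 and 5.68 in BAT. All beige arrays were higher than BAT, with a difference of 1.59 ± 0.40 (adjusted p = 0.0261, and 0.0599 without BAT 1 or 0.122 without BAT 4). Sncg, gamma synuclein, differed by 1.42 (adjusted p = 0.0116), and Nrip1, a corepressor that restrains brown fat genes, by 1.00 (adjusted p = 0.00255). Of 12 brown-selective markers, 2 were called lower and 0 higher (0 lower without BAT 1 or BAT 3), and of 9 beige-selective markers 1 was called higher and 0 lower. Tbx1, a beige marker, was at 3.22, 3.85 and 4.12 (lowest, median and highest) in beige, against 3.45, 3.07 and 3.16 in BAT, a difference of 0.57 (adjusted p = 0.0369). Its call was lost without WAT 2, BAT 3, BAT 4, CL 4, RS 3 or RG 2, with an adjusted p of 0.119 without BAT 3. Tmem26 and Tnfrsf9, surface markers of beige cells, differed by -0.09 and -0.16 (adjusted p = 0.906 and 0.62). Lhx8, a brown marker, differed by -0.37 (adjusted p = 0.363) and Ebf2, a brown fate factor, by -0.12 (adjusted p = 0.748). Pparg, the central adipocyte factor, was at 7.58, 7.92 and 8.23 in beige (lowest, median and highest), against 7.73, 8.02 and 7.62 in BAT (difference 0.10). Adipoq, adiponectin, differed by 0.67 (adjusted p = 0.312). Of 37 brown fate factors 4 were higher and 4 lower, with 2 higher without BAT 1, BAT 3 or BAT 4 and 2 lower without BAT 4. Cebpd, an early adipogenic factor, was higher by 1.06 (adjusted p = 0.00305), and Ppargc1b, a mitochondrial coactivator, lower by 1.95-fold (adjusted p = 0.00431).

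**Figure D3:**
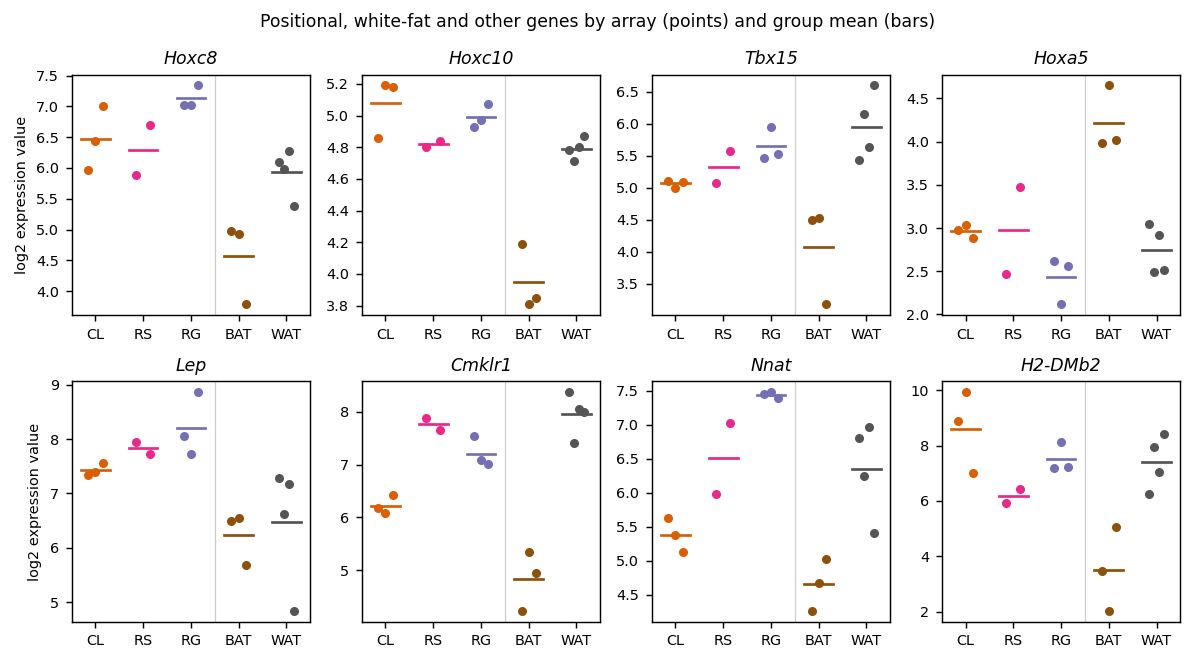
Log2 expression values of 8 genes (vertical axes) in each array (points) and group mean (bars) for CL, RS, RG, BAT and WAT. All 8 beige points lie above the BAT points for Hoxc8, Hoxc10, Tbx15, Lep, Cmklr1, Nnat and H2-DMb2, and below them for Hoxa5.

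The largest increase was in H2-DMb2, a beta chain of the chaperone that loads peptides on MHC class II. It was at 8.88, 9.93 and 7.01 in CL, 5.93 and 6.43 in RS, and 7.19, 8.14 and 7.22 in RG, against 3.47, 2.03 and 5.05 in BAT. All beige arrays were higher, by 3.92 ± 0.62 or 15.1-fold (adjusted p = 0.00215), and the WAT arrays were at 6.26 to 8.41. The other 12 MHC class II genes differed by -0.43 to 0.92, and none was called by limma, while 2 were above 0 and 1 below it at an unadjusted p under 0.05. The list of 13 had 2 genes called higher without WAT 1, WAT 4 or CL 4 and with median centring, and 3 after quantile normalization. Its near neighbour in sequence, H2-DMb1, differed by 0.61 (adjusted p = 0.291), and signal may be shared between these paralogs. Alb, plasma albumin, was at 5.47, 5.26 and 6.54 in CL, 7.34 and 5.69 in RS, and 6.30, 6.08 and 6.91 in RG, against 3.47, 3.19 and 3.41 in BAT, a difference of 2.88 ± 0.43 (adjusted p = 0.0015). Mup3, a major urinary protein, differed by 2.51, but belongs to a family of near-identical genes and its signal is uncertain. Its adjusted p of 0.0329 rose above the threshold without BAT 1, BAT 3, BAT 4, RS 3 or RG 2, with 0.134 without BAT 3.

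The remaining large increases included receptors, secreted signals and transporters. In each treatment's own limma comparison with BAT, 9 of the 15 largest increases were called higher in CL, 11 in RS and 14 in RG. Not called were Vnn3, Apol6, Nnat, Slc2a13, Tshr and Adamts12 in CL, H2-DMb2, Mup3, Tshr and Adamts12 in RS, and Mup3 in RG. Cmklr1, the receptor of chemerin, was at 6.17, 6.08 and 6.42 in CL, 7.89 and 7.65 in RS, and 7.54, 7.08 and 7.01 in RG, against 4.23, 5.35 and 4.94 in BAT. It was 4.68-fold higher in beige (difference 2.23 ± 0.23, adjusted p = 0.000181). Rarres2, which encodes chemerin, was at 8.42, 8.84 and 9.33 (lowest, median and highest) in beige, against 7.99, 8.05 and 7.41 in BAT, higher by 1.06 (adjusted p = 0.0046). Bmp2, a growth factor of the TGF-beta family, was at 3.51, 4.22 and 4.83 in beige, against 3.08, 2.08 and 2.41 in BAT (difference 1.78 ± 0.24, adjusted p = 0.000815). Hvcn1, a voltage-gated proton channel, differed by 1.75 (adjusted p = 0.00119). Slc2a13, a myo-inositol transporter, differed by 1.67 (adjusted p = 0.000644). Dapk1, a death-associated kinase, differed by 1.61 and Cks1b, a cyclin-dependent kinase subunit, by 1.60. Nnat, an imprinted membrane protein, was at 5.63, 5.37 and 5.12 in CL, 5.98 and 7.03 in RS, and 7.46, 7.48 and 7.40 in RG, against 4.26, 4.67 and 5.03 in BAT (difference 1.79 ± 0.29, adjusted p = 0.00263). Vnn3, of the pantetheinase family, and Apol6, an apolipoprotein L, differed by 1.95 and 1.90. Adamts12, a secreted metalloproteinase, differed by 1.64 and Tshr, the thyrotropin receptor, by 1.65. Without BAT 4 the adjusted p was 0.0568 for Vnn3, 0.063 for Adamts12 and 0.0675 for Tshr, and Tshr also lost its call without BAT 1, BAT 3 or RS 3. Of 21 factors listed as secreted by brown fat, 5 were called higher in beige and 1, Kng2, lower, beside 3.19% and 5.44% of all probe sets. Il6, a cytokine, was at 4.45, 5.13 and 5.41 (lowest, median and highest) in beige, against 3.67, 4.06 and 3.90 in BAT (difference 1.13 ± 0.13, adjusted p = 0.000313). Igf1, a growth factor, also differed by 1.13 (adjusted p = 0.000644). Of 15 adipokines 3 were called higher (5 without WAT 4) and 0 lower, among them Lep and Rarres2. Of 19 imprinted growth genes 3 were higher and 1 lower (0 lower without BAT 1), among them Plagl1, a zinc finger factor, with a difference of 1.24 (adjusted p = 0.000544).

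**Figure D4:**
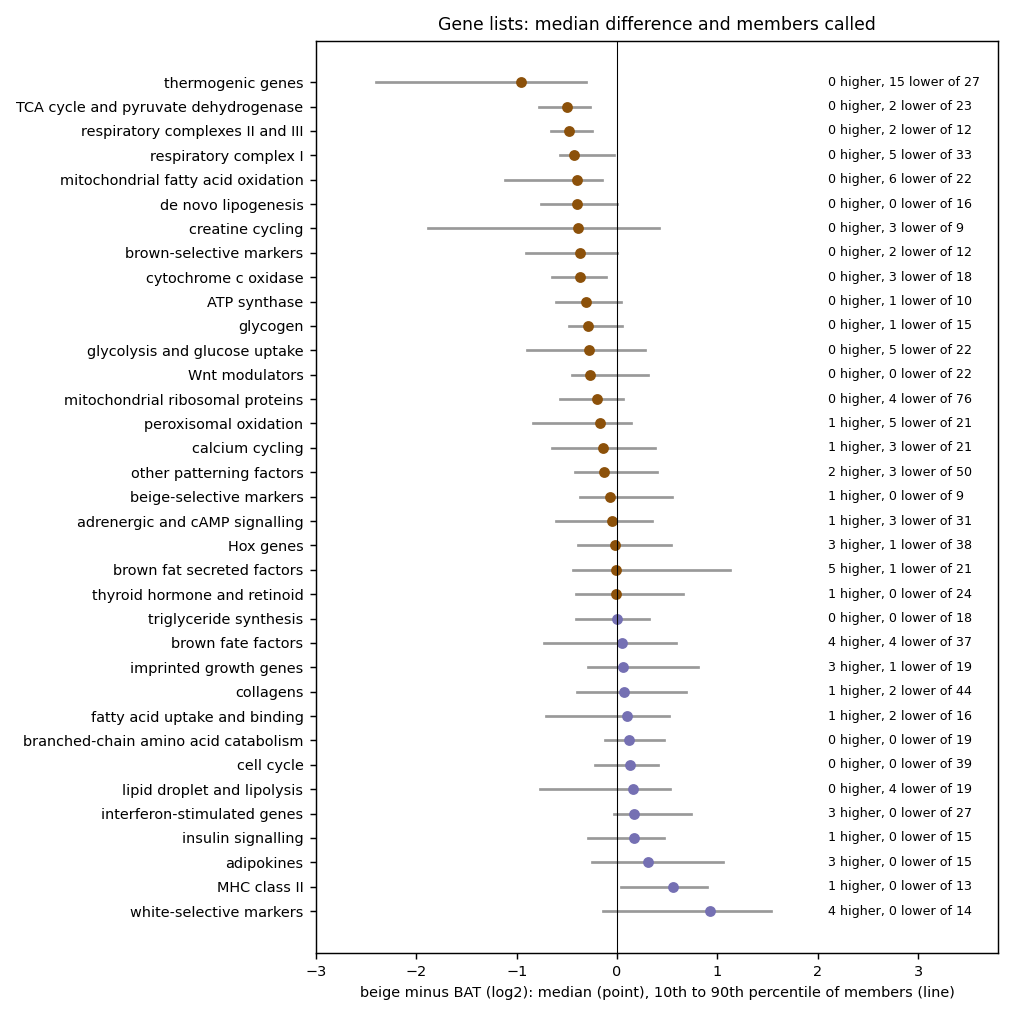
Median difference between beige and BAT (log2, point) and the range of its members between the percentiles named on the axis (line) for each list of pathway genes or adipocyte markers, with the members called higher and lower at the right. The thermogenic list has the lowest median at -0.96 and the white-selective markers the highest at 0.92.

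In the main model, which had no replicate block, the beige cells of the 3 treatments differed in how far they stood from BAT. Against the BAT arrays alone, 517 probe sets (2.05%) were called in CL, 925 (3.67%) in RS and 3596 (14.3%) in RG. These comparisons share the BAT arrays, and RS rests on 2 arrays. With single arrays left out, the CL count was 122 without CL 3, 128 without CL 1, and 248 to 305 without BAT 1, CL 4, BAT 4, RG 2 or WAT 2. The RS count was 370 without RS 3, 475 without BAT 3 and 609 without WAT 2, and the RG count 1593 without RG 3, 1700 without RG 2, 2014 without RG 4 and 2295 without BAT 1. An F test among CL, RS and RG, which used no BAT array for its contrast, called 903 probe sets (3.58%). It called 186 of the 2176 that differed between beige and BAT. Its count was 109 without RG 2, 131 without RG 3, 282 without CL 1, 395 without CL 3, 432 without RG 4, 435 without CL 4, 504 without WAT 2 and 564 without WAT 1. With the replicate number fitted as a block, 7 probe sets were called in CL, 72 in RS, 347 in RG and 3 in the F test. Of the 15 thermogenic genes called lower, 10 differed among the treatments, and CL lay nearest to BAT in all 15. Ucp1 differed from BAT by -0.46 in CL, -3.63 in RS and -2.70 in RG (adjusted p of limma's F test = 0.0172). Elovl3 differed from BAT by -0.20 in CL, -3.92 in RS and -3.69 in RG (adjusted p of limma's F test = 0.000712). In single comparisons the thermogenic list had 3 genes called lower in CL (1.42% of all probe sets were), 12 in RS (2.34%) and 16 in RG (8.42%). It had 0 called higher in each, beside 0.635% of all probe sets in CL, 1.33% in RS and 5.85% in RG. Among all probe sets with a mean above 4, the CL difference was the smallest of the 3 in size for 4452 of 9690. Among the 240 of them called lower in beige it was the smallest for 184, and among the 657 called higher for 421.

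**Figure D5:**
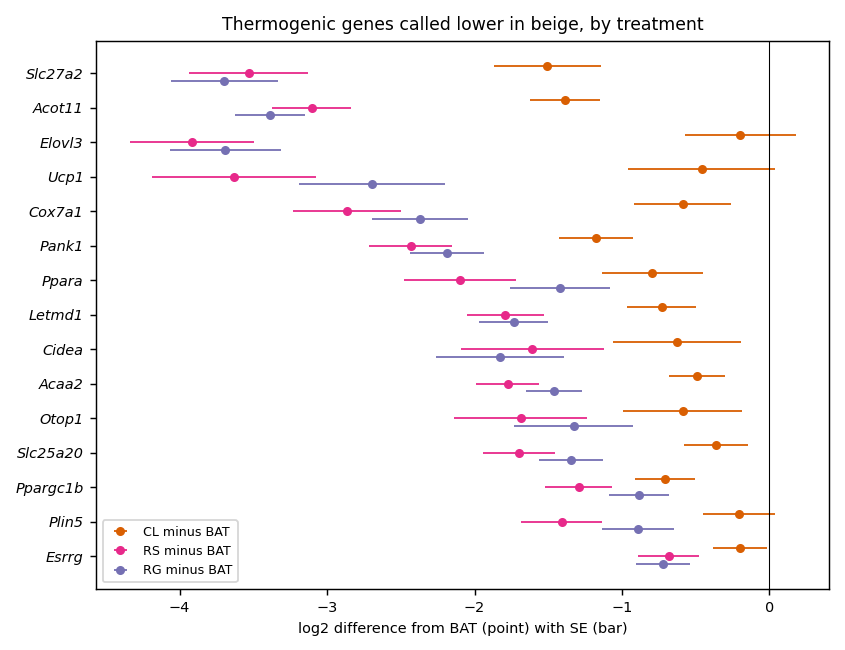
Log2 difference from BAT (horizontal axis, point, with its SE as bar) for CL, RS and RG in the 15 thermogenic genes called lower in beige. The CL points lie nearest to 0 for every gene shown.

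Some differences from BAT did not pass the F test among the 3 treatments. Kng2 differed from BAT by -3.04 in CL, -3.17 in RS and -3.36 in RG (adjusted p of limma's F test = 0.58). Atp1b1 differed by -1.66, -2.34 and -2.03 in the same order. Hoxc8 differed from BAT by 1.90 in CL, 1.72 in RS and 2.57 in RG, and Alb by 2.40, 3.16 and 3.07 in that order. An F test that misses the threshold does not show that the treatments act alike. Among genes called in beige against BAT without overlap of arrays, several with the smallest F p instead stood apart in CL. Acsl5 differed from BAT by -1.36 in CL, -2.85 in RS and -3.34 in RG. Phospho1 differed by -0.50, -2.99 and -2.67, and Alpl by -0.81, -2.56 and -2.16, in that order. Olfml1, an olfactomedin-like secreted protein, ran upward, with differences of 0.47 in CL, 1.46 in RS and 1.68 in RG.

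Several lists held no called member by limma, and others held few, while 3.19% of all probe sets were called higher and 5.44% lower. Branched-chain amino acid catabolism had 0 of 19, with 3 higher and 0 lower at an unadjusted p under 0.05. De novo lipogenesis had 0 of 16, with 0 higher and 3 lower by the same measure. Triglyceride synthesis had 0 of 18, with 1 higher and 2 lower. Wnt modulators had 0 of 22, with 0 higher and 9 lower, and the cell cycle list had 0 of 39, with 3 higher and 1 lower. Among 19 lipid droplet and lipolysis genes 4 were called lower, with 1 without BAT 1 and 2 without BAT 3, BAT 4 or RG 2. Plin3, a lipid droplet coat protein, kept its call in each of these fits and differed by -0.75 (adjusted p = 0.00996). Of 27 interferon-stimulated genes 3 were called higher and 0 lower (1 higher without BAT 1 or BAT 3). Gbp2, an interferon-induced GTPase, was at 6.11, 7.14 and 7.96 (lowest, median and highest) in beige, against 5.63, 5.84 and 6.17 in BAT, higher by 1.18 ± 0.18 (adjusted p = 0.00195). The lowest beige array lay just under the highest BAT array. Over all probe sets, at an unadjusted p under 0.05, 2583 were higher and 3905 lower.

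Markers of other cells were measured to see what the sorted fractions held. For comparison, 3.19% of all probe sets were called higher and 5.44% lower. The 24 mature adipocyte markers, summed on the linear scale and given as log2, were at 14.20 to 14.67 in beige, against 14.20 to 14.35 in BAT, and 1 of them (Tshr) was called. The macrophage sum was at 9.44 to 10.74 in beige, against 9.68 to 9.95 in BAT, with 2 of 23 called higher, Aif1 and Cd163. The stromal sum was at 11.16 to 12.20 in beige, against 10.85 to 11.33 in BAT, with 1 of 18 called. Endothelial markers summed to 8.75 to 12.29 in beige, against 10.57 to 11.64 in BAT, with 0 of 20 called by limma and, at an unadjusted p under 0.05, 2 higher and 4 lower. Lymphocyte markers summed to 6.87 to 8.20 in beige, against 6.92 to 7.04 in BAT, with 2 of 14 called higher. The nerve and Schwann cell sum was at 9.30 to 9.95 in beige, against 8.86 to 9.12 in BAT, without overlap, and Pmp22 was the 1 of 9 called higher. Most of these markers did not follow the sum, as 6 of the 9 differed below 0, with a median difference of -0.14. The mean of their log2 values overlapped, at 3.76 to 4.18 in beige, against 3.73 to 4.27 in BAT. The skeletal muscle sum was at 11.60 to 12.21 in beige, against 11.47 to 11.65 in BAT, and 3 of its 30 markers were called lower, each with means under 4 (1 without BAT 1). Without BAT 1 or BAT 4 the mature adipocyte, macrophage, stromal and lymphocyte lists had 0 calls. Without WAT 4 the mature adipocyte list had 4 and the stromal list 3, and the endothelial list had 4 lower without RS 4 and 2 higher without RS 3. Array values have no true 0, so a marker that is absent cannot be read as such. The part of these cells in the immune and secreted genes above was not tested.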

How the data were processed

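The deposited table holds log2 expression values for 25206 Affymetrix probe sets on 15 arrays. The authors made them with RMA, affy 1.36.1 and Affymetrix Expression Console, per the submitters' processing notes, which give no order or settings. Per the labels, 2 ng of total RNA was amplified with the WT Pico kit. A symbol was assigned to 23185 probe sets through the Entrez number in the identifier, and 2021 had none. One limma 3.58.1 model (R 4.3.3) fitted all 15 arrays with a mean per group (10 residual degrees of freedom), with no filter on low values. The contrast was the mean of the CL, RS and RG means minus BAT, tested two-sidedly at an adjusted p of 0.05 (Benjamini-Hochberg, all probe sets). With 2 RS arrays, the model lends RS the spread of the other groups. The precision is limited by the number of arrays. Array medians were 3.33 to 3.47. Arrays sharing a replicate number deviated from their group means in opposite directions, with a negative correlation in each of 24 pairs. The main model did not include this number. Its p-values treat the arrays as independent of it, which these correlations put in doubt.

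The members and the 46 gene lists were chosen with earlier results of these data known. Named genes are the 15 largest increases and 15 largest decreases among called genes whose arrays did not overlap, leaving out probe sets without a symbol, predicted genes, odorant, vomeronasal and taste receptors, small RNAs and antigen receptor segments. To these were added up to 6 members of each list with the smallest p, the 6 genes differing most and the 6 differing least among treatments, and a set of known adipocyte markers. Alternatives were another scaling, a level filter, array weights, trend and robust variances, the UCP1-positive arrays alone, equal weight per beige array, the replicate number as a block, and each array left out.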

Additional observations from a re-analysis of the deposited data

Results flagged for a closer look

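Among 51 genes compared over the 4 WAT arrays, WAT 4 stood apart from the other WAT arrays in 2, at 7.17 for Adamts12 and 6.14 for Tmem26. Chance alone sets about 1 in 20 such groups apart.

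Of 140 named genes, 33 differed among CL, RS and RG in their distance from BAT by limma's F test, beside 3.58% of all probe sets. Genes lower in beige than in BAT, with the adjusted p of the F test for each in parentheses, were Slc27a2 (0.0139), Acot11 (0.00239), Acsl5 (0.000712), Phospho1 (0.000712), Pank1 (0.0323), Alpl (0.00239), Clic5 (0.0141), Fpr-rs6 (0.00881), Ucp1 (0.0172), Elovl3 (0.000712), Cox7a1 (0.0135), Esrrb (0.0418), Acaa2 (0.0141), Letmd1 (0.0343), Ndufab1 (0.0343), Slc25a20 (0.0185), Amacr (0.0404), Ppp1r3b (0.0208), Plin3 (0.0424), Plin5 (0.0477), Itpr2 (0.0478) and Camk2b (0.0198). Genes higher in beige, likewise, were Cmklr1 (0.0282), Nnat (0.0193), Slc2a13 (0.0229), Olfml1 (0.00945), Irf4 (0.0336), Adcy5 (0.0319), Il6 (0.0198), Igf1 (0.0484), Inhbb (0.0463), Plagl1 (0.0195) and Gbp2 (0.0168). Some of these genes were named because of this difference, so the count is a description. With the replicate number fitted as a block, the F test called 3 of all probe sets.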

How the results depend on the processing

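Beige against BAT called 2176 probe sets in the model described, 805 higher and 1371 lower. Testing only probe sets with a mean above 4 gave 876 in all and 240 lower, with 75 for CL, 556 for RS, 1492 for RG and 445 in the F test among treatments. The 11 UCP1-positive arrays alone gave 1408 in all and 828 lower, with 147 for CL, 552 for RS and 247 in the F test. Array weights gave 1233 in all, 443 higher and 790 lower, with 128 for RS and 1732 in the F test. Quantile normalization gave 2021 for RG. Leaving out single arrays gave 1117 to 2445 in all, 391 to 971 higher, 726 to 1474 lower, 122 to 672 for CL, 370 to 1077 for RS, 1593 to 4187 for RG and 109 to 1127 in the F test. The lowest counts came without BAT 1 (all, higher and lower), CL 3, RS 3, RG 3 and RG 2. Without both WAT 4 and RS 3, CL had 846 and RS 496. The Hoxc9 difference turned to 0.034 with median centring, 0.079 after quantile normalization and 0.052 without both WAT 4 and RS 3, and ranged from -0.096 (without BAT 4) to 0.109 (without BAT 1) with single arrays left out. That of Fgf21 turned to 0.007 after quantile normalization and ranged from -0.417 (without BAT 4) to 0.208 (without BAT 3). That of Tmem26 ranged from -0.303 (without BAT 4) to 0.072 (without BAT 3). None of these 3 genes was called. The causes were not tested. As a replicate block, the number in the titles gave 317 in all, 118 higher and 199 lower, with 7 for CL, 72 for RS, 347 for RG and 3 in the F test. Over 24 pairs of same-numbered arrays, the deviations from group means correlated between -0.881 and -0.0498, so every pair ran in opposite directions. Of the 15 arrays, 0 correlated best with its own number. The values thus hold structure by replicate number, and its origin was not tested. The model without the block does not account for this structure, and its calls may be too many. Of the 128 named genes called, 54 kept their call under the block and 74 did not. With 3 BAT arrays and 2 RS arrays, small differences could not be resolved.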
